A study of Mus musculus with 18 samples.

Results

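The genes described here are the nuclear-encoded subunit genes of oxidative phosphorylation in mouse small intestinal crypts, from mice with and without an intact Prmt1 gene. Members were taken by name: symbols that begin with Nduf followed by a, b, c, s or v and a digit, with Uqcr, with Cox4 to Cox8 or with Atp5, and Sdha, Sdhb, Sdhc and Sdhd. Of 97 names that matched, 8 with a pseudogene suffix were left out, so that 89 of 55335 genes in the count table remained. Complex I held 40 of them, complex II 4, complex III 8, complex IV 19 and complex V 18. Of the 89, 82 passed the filter on low counts (37, 4, 8, 15 and 18 in complexes I to V) among 21349 genes tested.

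Oxidative phosphorylation takes place in the inner mitochondrial membrane. Complexes I and II pass electrons from NADH and succinate to ubiquinone, complex III passes them on to cytochrome c and complex IV to oxygen, while complexes I, III and IV pump protons. Complex V, the ATP synthase, uses the proton gradient to make ATP. All subunits of complex II and most subunits of the other complexes are encoded in the nucleus, and the rest in mitochondrial DNA. In the intestinal epithelium, stem cells, Paneth cells and enterocytes are known to differ in how far they rely on mitochondrial respiration or on glycolysis.

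PRMT1 is an arginine methyltransferase. All mice carried LoxP sites in both copies of Prmt1 (PRMT1 fl/fl), and the KO mice also carried Vil-CreERT2, a tamoxifen-inducible Cre recombinase driven by the villin promoter and thus active in the intestinal epithelium. The WT mice were littermates without CreERT2, matched for age (8 to 12 weeks) and gender, and all mice of both genotypes received tamoxifen, 2 mg per injection, on 5 consecutive days from day 0. Crypts were collected at day 2 before that day's injection, at day 7 or at day 14, from 3 mice per genotype and day, which gave 18 libraries of total RNA depleted of ribosomal RNA. Day 2 mice had thus not received the full course, and day and tamoxifen dose cannot be told apart in comparisons with day 2. Only KO mice carried CreERT2, so loss of PRMT1 and Cre activity cannot be told apart in KO against WT.

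The libraries held 12844642 to 31493484 counts, of which the members took 0.749 to 1.25%. The epithelial markers Epcam (757 to 1549 CPM, counts scaled to library size) and Vil1 (688 to 2053 CPM) were abundant in every library. Prmt1 itself was at 15.8, 13.1 and 14.3 CPM in KO and 27.1, 26.5 and 26.1 CPM in WT at day 2, at 13.6, 17.4 and 16.4 CPM in KO and 22.3, 25.9 and 23.1 CPM in WT at day 7, and at 16.1, 15 and 15.1 CPM in KO and 25.2, 30.6 and 20.2 CPM in WT at day 14. No KO library reached the lowest WT library of its day. The log2 fold change of Prmt1 was -0.89, -0.59 and -0.72 at days 2, 7 and 14 (adjusted p 0.0264, 0.00675 and 0.00329). Adjusted p here and in what follows came from edgeR's quasi-likelihood test, corrected by Benjamini-Hochberg across the genes tested. At day 2 this call was lost when any library of that day was left out, and with the replicate number as a block (-0.88, adjusted p 0.0531) or with only the groups compared in the fit (-0.89, adjusted p 0.0939), and at day 7 without the first KO library (-0.47, adjusted p 0.0655).

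In WT crypts, complex V took the largest share of the members' summed CPM, 41.4%, followed by complex I with 21.7%, complex IV with 17.3%, complex III with 11.6% and complex II with 8.01%. Levels of different genes were compared as CPM per kilobase of annotated exon length, averaged over the 9 WT libraries. On this scale the median level was 36.6 for the tested members of complex I, 83.2 for complex II, 100 for complex III, 80.2 for complex IV and 67.7 for complex V. Atp5a1 and Atp5b, which encode the alpha subunit and the catalytic beta subunit of the ATP synthase, were at 348 and 306 CPM per kilobase. In complex IV, Cox6a1 and Cox8a led with 324 and 277, and in complex III, Uqcr11 and Uqcrh, both small accessory subunits, with 154 and 137. Complex II was led by Sdhd, a membrane anchor, at 158 and Sdha, the flavoprotein that oxidises succinate, at 95.9. The highest level per kilobase in complex I belonged to Ndufb9 (108), an accessory subunit. Scaled by the length of 1 principal transcript instead, the medians of complexes I to V were 66.7, 137, 186, 185 and 183, so the order of the complexes depended on the length used. The leading genes changed too: by transcript length Cox4i1 (479) led complex IV with Cox8a (312) behind Cox6a1 (398), Uqcrh (309) preceded Uqcr11 (222), Sdhb (138) preceded Sdha (136), Atp5b (678) preceded Atp5a1 (442), and Ndufa4 (252) preceded Ndufb9 (158).

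Several subunits of complex IV and the c subunit of complex V have more than 1 gene, and the crypts used these unequally. Cox6a1 was at 324 CPM per kilobase in WT and Cox6a2, the form known from heart and skeletal muscle, at 0.290. Cox6b1 was at 224 and the testis form Cox6b2 at 0.876. Cox7a2, the widely expressed form of subunit VIIa, was at 130, its relative Cox7a2l, a supercomplex assembly factor, at 62.0, and the heart and muscle form Cox7a1 at 43.0. Of the muscle forms, Cox7a1 was thus present in these crypts and Cox6a2 nearly absent. The 3 genes that encode the same mature c subunit were at 111 (Atp5g3), 26 (Atp5g1) and 20.3 (Atp5g2), and per kilobase of transcript at 340.5, 215 and 77.1, so their ratios depended on the length used. The 7 members that did not pass the filter were Ndufa11b, Ndufa4l2, Ndufb4c, Cox4i2, Cox8b, Cox7b2 and Cox8c. Their counts over all 18 libraries summed to 86, 46, 32, 89 and 56 for the first 5 and to 0 for Cox7b2 and Cox8c, and they were not tested with the others.

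The first question was whether the members differed between KO and WT at each day. At day 2, 0 of 82 members were called between KO and WT by edgeR's test, against 0.0281% of all genes called higher and 0.00468% called lower. None had an unadjusted p under 0.05 and DESeq2 called 0. No member had KO and WT libraries that did not overlap, which held for 8.16% of all genes. The members' median log2 fold change was -0.08 and that of all genes -0.0048, with 65 of 82 members below 0. By complex the medians were -0.08, -0.15, -0.05, -0.06 and -0.09 from I to V.

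At day 7, when 7.11% of all genes were called higher and 10.2% lower in KO, 1 of 82 members was called. Cox7a1 was lower in KO crypts, and no tested member was called higher. KO and WT libraries did not overlap for 2 members above WT (Cox6a2 and Cox6b2) and 2 below (Cox7a1 and Ndufb11), together 4.88% of members against 33.6% of all genes. The median of the members was 0.05, with 32 of 82 below 0. Medians by complex were -0.01, 0.06, 0.11, 0.11 and 0.08 from I to V. The quartiles of the members' fold changes were -0.08 and 0.15, and those of all genes -0.30 and 0.29.

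At day 14, when 3.23% of all genes were called higher and 4.69% lower, 0 of 82 members were called by edgeR's quasi-likelihood test and 0 by DESeq2. An unadjusted p under 0.05 was found for 3 members, Cox7a1, Cox6a2 and Ndufv1. Libraries did not overlap for 2 members above WT, Cox6a2 and Ndufs4, and 4 below, Ndufa6, Ndufb11, Ndufc1 and Atp5j, 7.32% of members against 26.5% of all genes. The members' median was -0.05, and the medians by complex were -0.11, 0.06, 0.05, 0.04 and -0.08. Leaving out single libraries moved the members' median from -0.15 to 0.03 at day 2, from -0.05 to 0.25 at day 7 and from -0.17 to 0.14 at day 14, so its sign was not fixed on any day.

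**Figure D1:**
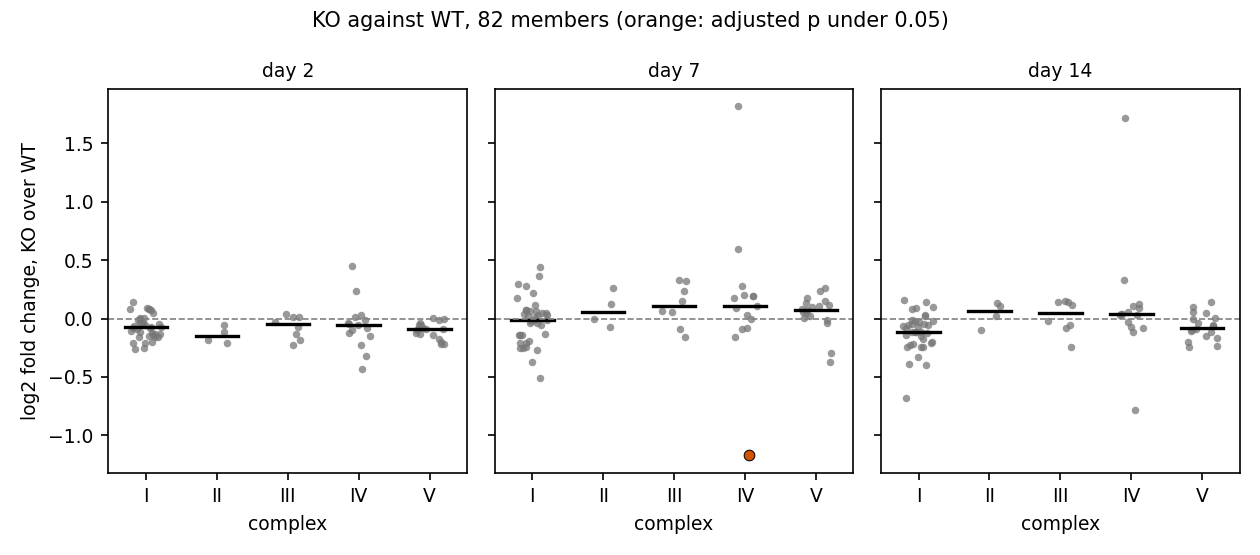
Log2 fold change of KO against WT for each tested member (points) at days 2, 7 and 14, by complex, with the median of each complex (line) and called members in orange. At day 7 the quartiles of the members are -0.08 and 0.15; Cox7a1 is the lowest at days 7 and 14 and Cox6a2 the highest.

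How small the differences were can be read from their intervals. The 95% confidence interval of the KO against WT fold lay wholly within 1.5-fold in either direction for 59 of 82 members (72.0%) at day 2, 51 (62.2%) at day 7 and 59 (72.0%) at day 14. For all genes the shares were 44.7, 29.0 and 33.3%. For 8700 genes of comparable level (mean log2 CPM no lower than that of the lowest member, apart from tissue-restricted isoforms and gene copies) they were 82.1, 55.4 and 65.3%, above the members' share at day 2 and below it at days 7 and 14. For the remaining members the interval reached past 1.5-fold, and that of Cox7a1 at day 7 lay wholly beyond it.

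Cox7a1 encodes the heart and muscle form of subunit VIIa of cytochrome c oxidase and lies at chr7:30184144-30186078 on the plus strand of mm10. At day 7 it was at 9.78, 9.27 and 8.38 CPM in KO and at 17.9, 26 and 18.1 CPM in WT. At day 14 the KO libraries were at 6.59, 11.8 and 10.3 CPM and the WT libraries at 9.29, 20.6 and 19 CPM. At day 2 the values were 26.8, 18.3 and 26.2 CPM in KO and 32.1, 23.7 and 40.6 CPM in WT. Every KO library lay below every WT library at day 7, while the genotypes overlapped at days 2 and 14. The log2 fold change was -1.17 ± 0.28 (SE; 95% interval -1.75 to -0.59; adjusted p 0.00709) at day 7, a fold of 0.444. At day 14 it was -0.79 ± 0.28 (adjusted p 0.0995) and at day 2 -0.44 ± 0.27 (adjusted p 0.999), so neither passed the test. Without the first WT library of day 14, Cox7a1 was called on that day too (-1.05, adjusted p 0.0127). The day 7 call held with each library left out, at log2 fold changes from -1.26 to -0.98.

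Cox7a2 was not called. The gene, at chr9:79755361-79759878 on the minus strand, was at 138, 133 and 78.6 CPM in KO and 92.2, 141 and 95.7 CPM in WT at day 7, with overlapping groups and a log2 fold change of 0.09 ± 0.21 (95% interval -0.35 to 0.52). Cox7a2l was at -0.16 ± 0.20. The difference between the isoforms' fold changes was not tested.

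Cell type markers also changed at day 7. In KO against WT at day 7, 8 of 10 stem cell genes were called lower, with a median of -0.90, as were 7 of 7 Paneth cell genes, with a median of -2.04, and 10 of 10 enteroendocrine genes were called higher. In bulk RNA, fewer cells of a type and less RNA per cell cannot be told apart. Of 11 genes that mark skeletal or heart muscle and brown fat, 2 (Acta1 and Mylpf) passed the filter, with a summed level of 2.02 to 7.64 CPM per library, and Myh1 had a count of 0 in all libraries, Ucp1 one of 7 and Myh6 one of 2 over all libraries. The part of these cell types in the level of Cox7a1 was not tested.

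**Figure D2:**
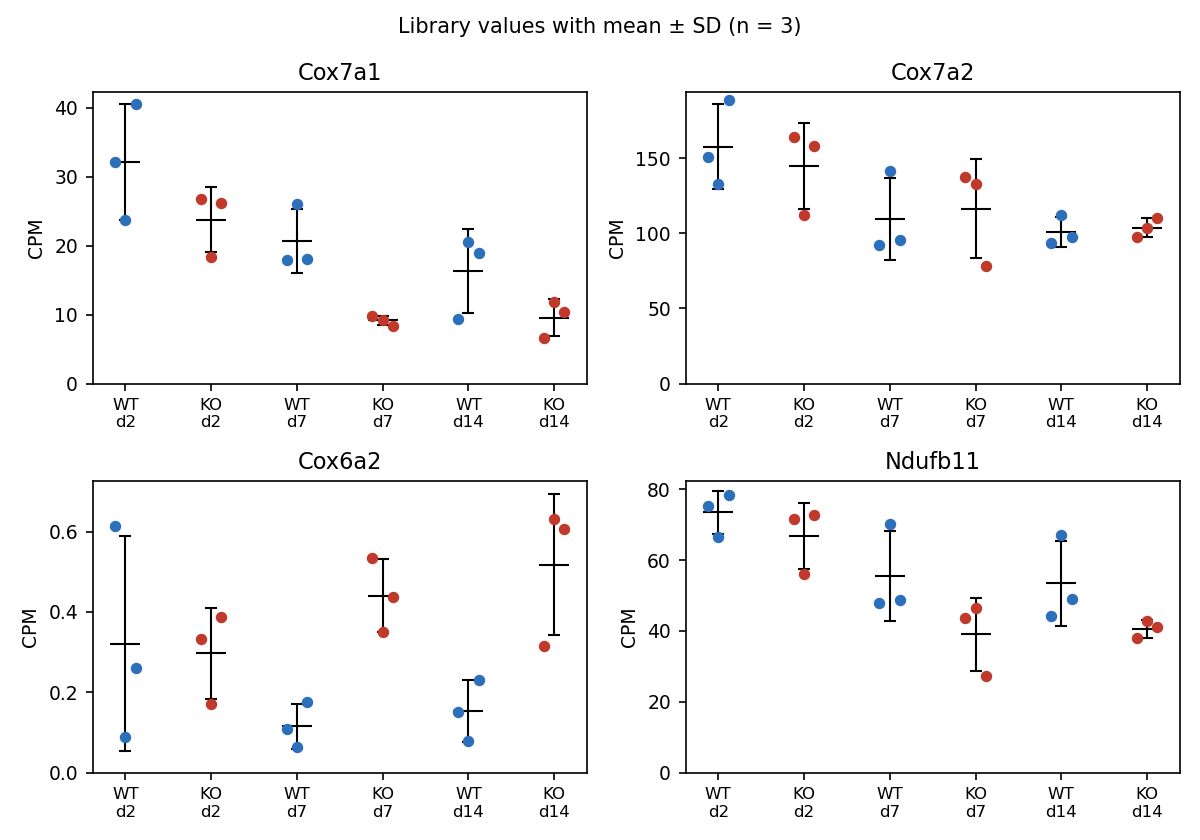
CPM in each of the 18 libraries (points) with the group mean and SD (bars), WT in blue and KO in red, for Cox7a1, Cox7a2, Cox6a2 and Ndufb11. The 3 KO libraries of day 7 lie below all WT libraries of that day for Cox7a1 and Ndufb11 and above them for Cox6a2, while Cox7a2 overlaps.

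Cox6a2, at chr7:128205435-128206387, is the other muscle form that stood out, but at 1 to 15 counts per library. Its levels at day 7 were 0.534, 0.351 and 0.437 CPM in KO and 0.108, 0.0639 and 0.175 CPM in WT, and at day 14 0.316, 0.631 and 0.607 CPM in KO and 0.151, 0.0790 and 0.232 CPM in WT. KO libraries were above WT libraries on both days. At day 2 the group means were 0.437 CPM per kilobase in KO and 0.473 in WT. They were 0.648 and 0.170 at day 7, and 0.762 and 0.226 at day 14. Against day 2, the WT means were thus lower at the later days and the KO means higher. The log2 fold change was 1.81 ± 0.62 (95% interval 0.51 to 3.12; adjusted p 0.0506) at day 7 and 1.72 ± 0.63 (adjusted p 0.104) at day 14, neither past the threshold. The day 7 result depended on the setting, as it passed in edgeR with DESeq2 size factors (adjusted p 0.0488) or a replicate block (adjusted p 0.0391). Cox6a2 shares 10.3% of its exon bases with Itgad, and counts over shared bases were given to both genes.

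Ndufb11, an accessory subunit in the membrane arm of complex I, lies at chrX:20615326-20617619 on the minus strand. It was at 43.6, 46.4 and 27.2 CPM in KO and 47.8, 70.3 and 48.6 CPM in WT at day 7, and at 37.9, 42.7 and 41.2 CPM in KO and 44.3, 67.0 and 49.0 CPM in WT at day 14. The groups did not overlap on either day. The log2 fold change was -0.50 ± 0.19 (95% interval -0.91 to -0.10; adjusted p 0.0802) at day 7 and -0.40 ± 0.19 (adjusted p 0.241) at day 14. At day 7 it was -0.28 without the third KO library and -0.30 without the second WT library. Ndufb11 shares 12.9% of its exon bases with Rbm10.

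Cox4i2, the alternative form of subunit IV, known to respond to low oxygen, lies at chr2:152754173-152765037 on the plus strand and did not pass the filter on low counts. Its raw counts, in libraries of unequal depth, were 26, 12 and 9 in the KO libraries and 2, 2 and 4 in the WT libraries of day 7, and at day 14 they were 7, 9 and 4 in KO and 1, 1 and 0 in WT. At day 2 they were 2, 0 and 4 in KO and 1, 2 and 3 in WT. KO counts were above all WT counts at days 7 and 14 and overlapped at day 2. When no filter was applied, Cox4i2 was called higher in KO at day 7 (log2 fold change 2.34 ± 0.66, adjusted p 0.00736) and at day 14 (adjusted p 0.00911), where the fold rests on 2 WT counts in all and is not given. With single libraries left out the filter on low counts was easier to pass, and Cox4i2 passed it through its highest KO libraries. Its calls in those fits are thus no added support. Of 10 stromal and smooth muscle genes, 2 were called higher in KO at day 7 and 0 by edgeR at day 14 (2 at an unadjusted p under 0.05), with list medians of 0.40 and 0.49, and their part in the counts of Cox4i2 was not tested.

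No subunit of complex II was called. Sdha was at 443, 424 and 333 CPM in KO and 340.1, 379 and 383 CPM in WT at day 7, and its fold change was 0.12 ± 0.16 on the log2 scale. Sdhb, the iron-sulfur subunit, was at -0.07 ± 0.19, and the anchors Sdhc and Sdhd at -0.01 ± 0.22 and 0.26 ± 0.22. At day 14 these values were 0.13, 0.02, -0.10 and 0.11 for Sdha, Sdhb, Sdhc and Sdhd. Sdha overlapped between KO and WT on each day.

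Atp5b was at 1399.8, 1358 and 918 CPM in KO and 985, 1296 and 1216 CPM in WT at day 7, with a log2 fold change of 0.07 ± 0.23, and Atp5a1 was at 0.12 ± 0.22. The c subunit genes Atp5g1, Atp5g2 and Atp5g3 were at 0.10, -0.30 and 0.26, with SEs of 0.23, 0.22 and 0.24. In complex IV, Cox4i1, the ubiquitous form of subunit IV, was at 367, 372 and 254 CPM in KO and 310.2, 411 and 338 CPM in WT, and its log2 fold change was -0.09 ± 0.21. Cox6a1 was at -0.01 and Cox8a at 0.03, and Uqcr11 and Uqcrh of complex III at -0.09 and 0.06.

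In complex I, the 7 nuclear core subunits, which carry the flavin and iron-sulfur clusters, had a median of -0.02 at day 7 and -0.12 at day 14, when 7 of 7 were below 0 and none was called. Ndufv1, the NADH-binding subunit, was at -0.39 ± 0.18 (adjusted p 0.214) at day 14. The accessory subunits had medians of 0.01 and -0.07. Ndufa4, named for complex I but known as a subunit of complex IV, was at -0.14 ± 0.24 at day 7.

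Whether the KO effect itself changed between days was tested with interaction terms. None of 82 members was called for day 7 against day 2 (4.37% of all genes were called; 1 member had an unadjusted p under 0.05 and DESeq2 called 0), and none for day 14 against day 7 (0% of all genes; 0 members with an unadjusted p under 0.05 and 0 by DESeq2). The lower level of Cox7a1 in KO was thus not shown to differ between days.

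The second question was how the members changed with time within each genotype. The study reports samples of both sexes, and sex was not in the model, so its part in comparisons of days was not tested. In WT crypts at day 7, 81 of 82 members had a log2 fold change below 0 against day 2, with a median of -0.39 where that of all genes was 0.01 and that of genes of comparable level -0.12. No member was called by edgeR's quasi-likelihood test, against 0.253% of all genes called higher and 0.3% called lower. DESeq2 called 4, along with 1511 genes in all. An unadjusted p under 0.05 was found for 36 members. The share of all genes at that threshold is not given here, so this count is not read as particular to the members. For 28 members (34.1%) every day 7 library was below every day 2 library and for 0 above, and groups did not overlap for 28.4% of all genes. The medians by complex were -0.33, -0.40, -0.41, -0.39 and -0.49 from I to V.

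WT crypts at day 14 gave the same median, -0.39, with 81 of 82 members below 0. This comparison shares the day 2 libraries with the previous one. Atp5md, a small subunit of the ATP synthase found at its dimer interface, was at 89.5, 85.1 and 98.7 CPM at day 2 and at 45.7, 57.0 and 55.8 CPM at day 14. It was the only member called (log2 fold change -0.78 ± 0.19, adjusted p 0.0446), where 0.735% of all genes were called higher and 0.871% lower. That call was lost when any of 5 of the 6 libraries was left out. An unadjusted p under 0.05 was found for 36 members, again without the share of all genes at that threshold beside it. DESeq2 called 8 members and 1383 genes in all. With edgeR, 10 members were called with no filter and 5 with a minimum mean count of 50 (1011 and 770 genes in all). None was called with a replicate block or only the groups compared (173 and 28 genes in all), and the main fit called 343 genes. For 26 members (31.7%) all day 14 libraries were below all day 2 libraries, against 23.8% of all genes in either direction. Medians by complex were -0.35, -0.38, -0.42, -0.46 and -0.42. Between days 7 and 14 no WT member was called, by edgeR or DESeq2 or at an unadjusted p under 0.05 (0.0796% of all genes were called).

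In KO crypts at day 7, 78 of 82 members were below their day 2 level, with a median of -0.25, and 10 were called, all lower (12.2% of members), where 7.21% of all genes were called higher and 8.8% lower. The 4 with the lowest fold changes were Cox7a1 at -1.38 ± 0.28 (adjusted p 0.00266), Ndufb11 at -0.77 ± 0.19 (adjusted p 0.0100), Atp5e, the epsilon subunit of the ATP synthase, at -0.69 ± 0.23 (adjusted p 0.0486), and Ndufb4, an accessory subunit of complex I, at -0.67 ± 0.20 (adjusted p 0.0266). The others, between -0.63 and -0.53, were 5 accessory subunits of complex I, Ndufa13, Ndufa6, Ndufa3, Ndufc1 and Ndufa1, and Uqcrq of complex III. Groups did not overlap for 25 members (30.5%), all lower, against 31.8% of all genes. Medians by complex were -0.25, -0.17, -0.20, -0.17 and -0.28. These values leaned on 1 library: without the third KO library of day 7 the median was -0.04, 49 of 83 members were below 0 and 2 were called. All genes called were then 2849, against 3418 in the main fit.

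In KO crypts at day 14, against the same day 2 libraries, 79 of 82 members were below 0 with a median of -0.35. The 7 called members, all lower (8.54%), were Cox7a1 (-1.32 ± 0.28, adjusted p 0.00590), Ndufb11 (-0.72 ± 0.19, adjusted p 0.0221), Ndufa6 (-0.68 ± 0.18, adjusted p 0.0209), Ndufc1 (-0.64 ± 0.18), Atp5md (-0.63 ± 0.19), Ndufa13 (-0.62 ± 0.17) and Uqcrq (-0.60 ± 0.17). Of all genes, 5.54% were called higher and 5.75% lower. Only 1 member was called without the first or the third KO library of day 14 (1162 and 1323 genes in all, against 2411 in the main fit). When only the groups compared were fitted, 22 members and 2394 genes in all were called. Ndufa13, for example, was at 92.9, 109 and 89.0 CPM at day 2 and at 58.7, 65.5 and 65.0 CPM at day 14. Ndufa13 shares 30% of its exon bases with Tssk6 on the other strand, and the counting did not use strand. For 48 members (58.5%) all day 14 libraries lay below all day 2 libraries, against 32.4% of all genes in either direction. By complex the medians were -0.38, -0.22, -0.35, -0.36 and -0.35, and complex II had no called member in any comparison. Between days 7 and 14, 0 KO members were called by edgeR and DESeq2 and 0 had an unadjusted p under 0.05 (0.0468% of all genes were called).

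**Figure D3:**
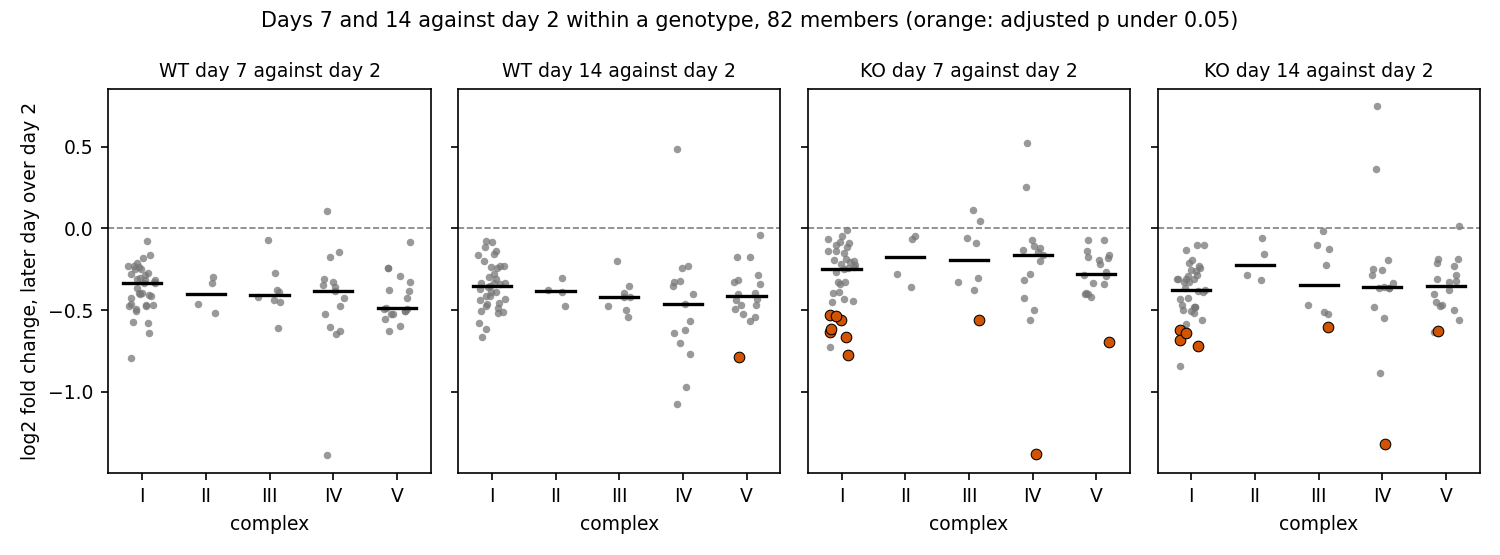
Log2 fold change of days 7 and 14 against day 2 for each tested member (points), in WT and in KO, by complex with medians (lines) and called members in orange. Nearly all points lie below 0 in all 4 comparisons; the medians over all members are -0.39 in WT on both days and -0.25 and -0.35 in KO.

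The members' levels also differed between libraries of a group. Taking each member's log2 difference from the WT day 2 mean, the median over members was -0.58, -0.13 and -0.47 in the WT libraries of day 7 and -0.61, -0.09 and -0.47 in those of day 14. In KO it was -0.13, -0.17 and -0.78 at day 7 and -0.57, -0.37 and -0.38 at day 14. The second WT library of each later day thus lay near the day 2 level, and the third KO library of day 7 far below it. The number of members below the lowest WT day 2 library was 37, 46 and 80 of 82 in KO at day 7, and 78, 30 and 74 in WT.

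Other measures also differed between days and libraries. The 20 most abundant genes took 18.6 to 21.3% of counts at day 2 and 20.7 to 32.9% at the later days, with 30.2% in the third KO library of day 7. Within the WT libraries of day 7 the share was 24.1, 24.8 and 20.7%, highest in the library whose members lay nearest the day 2 level, and within those of day 14 it was 30.2, 24.4 and 30.3%, lowest in the library nearest that level. Genes of comparable level with a principal transcript under 1000 bases had a median of -0.31 in WT at day 7 against day 2, and longer ones -0.10, and the 55 members with short transcripts had -0.41 where the 25 longer ones had -0.33. In KO at day 14 against day 2 the same medians were -0.33 and -0.09 for genes of comparable level and -0.39 and -0.26 for members. A list of 12 enterocyte genes had medians of -0.98 and -1.20 in WT at days 7 and 14 and -0.28 and -0.27 in KO, while 7 general epithelial genes had -0.22 and -0.20 in WT and -0.15 and -0.29 in KO. The part of transcript length, of the most abundant genes or of enterocyte content in the members' levels was not tested.

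**Figure D4:**
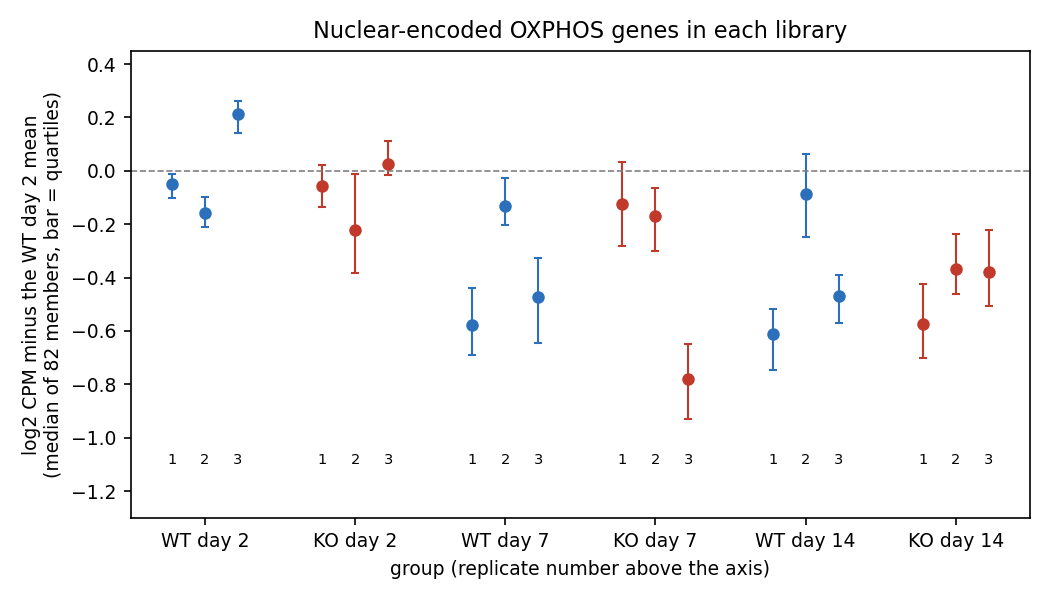
Log2 CPM minus the WT day 2 mean in each of the 18 libraries, as the median (dot) and quartiles (bar) over the 82 members, by group and replicate, WT in blue and KO in red. Medians of day 2 libraries lie between -0.22 and 0.21; the lowest, -0.78, is the third KO library of day 7, and the second WT libraries of days 7 and 14 lie at -0.13 and -0.09.

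Some genes that work with the members were called at day 7, when 7.11% of all genes were called higher and 10.2% lower. Of 18 glycolysis genes, 12 were called higher in KO and none lower, with a median log2 fold change of 0.78. They included Hk1 (1.5), a hexokinase, Slc16a3 (1.22), a lactate exporter, and Slc2a1 (1.16), a glucose importer. At day 14, 1 of 18 was called, Slc2a1 at 0.76, with a list median of 0.39. Of the 13 subunits encoded in mitochondrial DNA, 4 were called higher at day 7, mt-Nd1 (0.87), mt-Atp8 (0.83), mt-Nd2 (0.75) and mt-Atp6 (0.62), with a median of 0.46. With each library of day 7 left out in turn, the glycolysis count was 9 to 15 and the count of mitochondrially encoded subunits 0 (without the third WT library) to 4. At day 14 edgeR called 0 of 13, with a median of 0.08.

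In the tricarboxylic acid cycle, which delivers NADH and succinate to complexes I and II, 2 of 18 genes were called lower at day 7, Idh2 (-0.90) and Suclg2 (-0.68), and none higher, while the list's median was 0.21. Among 17 genes of other electron carriers, Coq4 (0.82) and Gpd2 (0.59) were called higher and Coq2 (-0.79), Prodh (-0.75) and Coq8a (-0.73) lower. Of 19 assembly factors of complex IV, Coa5 (0.65), Cox16 (0.60) and Cox10 (0.57) were higher and Taco1 (-1.18), which activates translation of the mitochondrial Cox1 mRNA, was lower. Nubpl (-0.84), which delivers iron-sulfur clusters, was the only one called of 15 assembly factors of complex I, and none of 4, 6 and 3 was called for complexes II, III and V. Of 78 mitochondrial ribosomal protein genes 1 was called, with a median of 0.09.

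Among 19 regulators of mitochondrial gene expression, Esrra, a nuclear receptor that binds promoters of respiratory genes, was called higher at day 7 (0.53, adjusted p 0.0147), and Tfb1m, a mitochondrial ribosomal RNA methyltransferase, lower (-1.06). At day 14 Esrra was at 0.55 and Tfb1m at -1.12. Ppargc1a (-0.19), Nrf1 (-0.03), Gabpa (0.26) and Tfam (-0.29) did not pass the test at day 7.

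**Figure D5:**
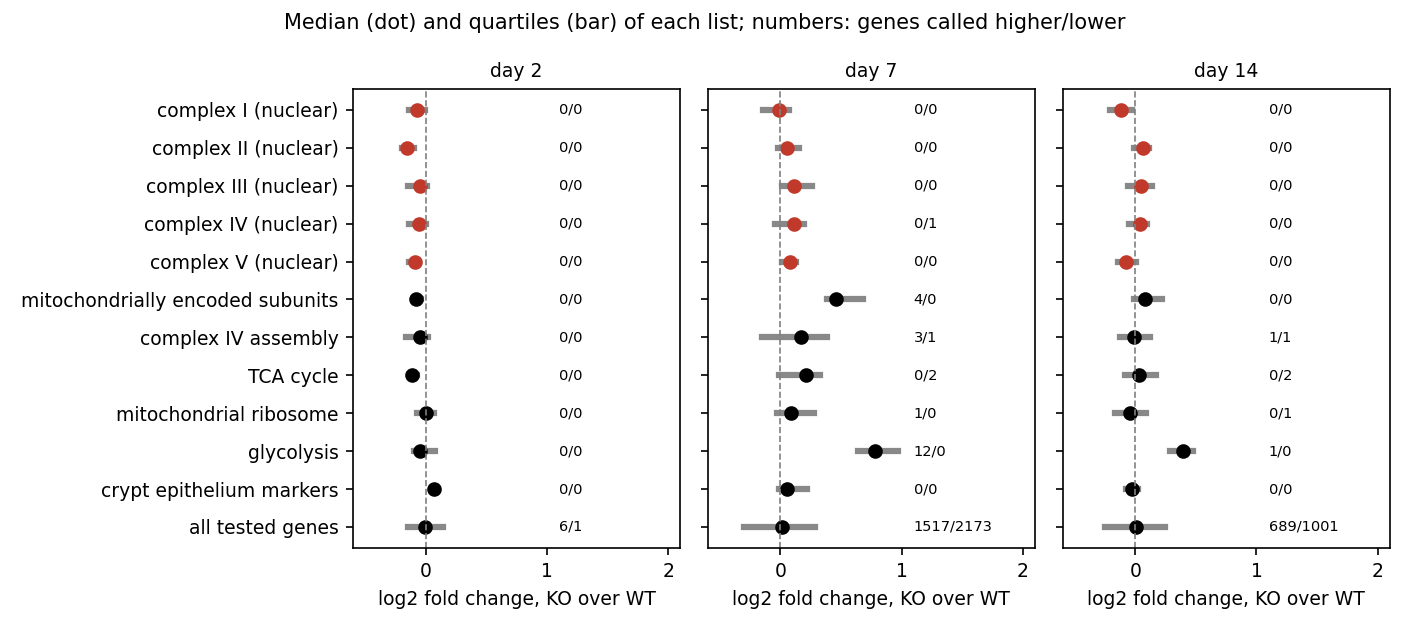
Median (dot) and quartiles (bar) of the log2 fold change of KO against WT at days 2, 7 and 14 for the members by complex (red) and for related gene lists (black), with the numbers of genes called higher and lower. At day 7 the glycolysis list has a median of 0.78 with 12 genes called higher, while the medians of complexes I to V lie between -0.01 and 0.11 with 1 member called, in complex IV.

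Nuclear respiratory genes share promoter motifs for NRF1, ETS factors such as GABPA, estrogen-related receptors (ERR) and YY1, so the members' promoters were searched on both strands of the 250 bases before the RefSeq start (GRCm38.p6). An entry was found for 67 of the 88 member symbols. GCGCATGCG (NRF1) was in 6 of 67 (8.96%) and in 1.64% of 27025 promoters of all genes. CCGGAAGT (ETS) was in 3 (4.48%, against 3.23%), TCAAGGTCA (ERR) in 1 (1.49%, against 0.422%) and AAGATGGCG (YY1) in 1 (1.49%, against 0.710%). At least 1 of the 4 was in 11 members (16.4%) and 5.77% of all promoters. The matches to NRF1 were in Ndufa11, Ndufa8, Cox6a1, Atp5g2, Atp5k and Atp5l, those to ETS in Uqcr11, Uqcrh and Atp5h, that to ERR in Atp5g3 and that to YY1 in Atp5j.

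The promoters below are those of Cox7a1, the member called in KO, and of its isoform Cox7a2, which was not, followed by 5 members with an NRF1, ETS or ERR motif upstream of the annotated gene. Each is given 5′ to 3′ on the gene's strand, in lower case with a motif in capitals, without bases inside the gene as the count table annotates it. Of Cox7a1, Cox7a2 and Cox6a1 the 250 bases before the start were taken, and of the other 4 the 100 bases nearest the start. Cox7a1 is at chr7:30183921-30184143, Cox7a2 at chr9:79759879-79760103, Cox6a1 at chr5:115348982-115349208, Ndufa11 at chr17:56717662-56717761, Uqcr11 at chr10:80406831-80406921, Uqcrh at chr4:116075072-116075170 and Atp5g3 at chr2:73911327-73911426. Cox7a1 and Ndufa11 are on the plus strand and the others on the minus strand.
Cox7a1: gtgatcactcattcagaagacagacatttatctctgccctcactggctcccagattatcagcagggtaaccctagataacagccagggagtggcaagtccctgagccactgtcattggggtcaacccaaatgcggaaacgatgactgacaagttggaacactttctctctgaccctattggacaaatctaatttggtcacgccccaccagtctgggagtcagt
Cox7a2: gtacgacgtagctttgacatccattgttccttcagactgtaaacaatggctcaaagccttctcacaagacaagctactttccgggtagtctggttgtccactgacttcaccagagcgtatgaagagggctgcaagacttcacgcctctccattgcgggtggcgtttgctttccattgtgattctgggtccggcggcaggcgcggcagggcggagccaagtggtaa
Cox6a1: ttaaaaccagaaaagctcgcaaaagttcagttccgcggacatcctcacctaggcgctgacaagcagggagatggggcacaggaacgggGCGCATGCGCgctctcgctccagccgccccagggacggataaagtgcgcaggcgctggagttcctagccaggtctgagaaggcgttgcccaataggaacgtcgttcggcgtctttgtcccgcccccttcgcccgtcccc
Ndufa11: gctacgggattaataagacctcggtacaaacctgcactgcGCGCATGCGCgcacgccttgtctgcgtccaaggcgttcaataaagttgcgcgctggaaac
Uqcr11: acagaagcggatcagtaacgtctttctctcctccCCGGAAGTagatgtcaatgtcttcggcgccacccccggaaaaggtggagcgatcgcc
Uqcrh: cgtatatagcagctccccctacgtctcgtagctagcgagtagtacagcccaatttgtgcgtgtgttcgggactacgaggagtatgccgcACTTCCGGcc
Atp5g3: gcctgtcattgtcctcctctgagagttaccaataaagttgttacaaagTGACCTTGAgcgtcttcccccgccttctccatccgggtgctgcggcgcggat

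In Cox6a1 and Ndufa11 the NRF1 motif and its reverse complement overlap, which gives the run of capitals GCGCATGCGC, and in Uqcrh and Atp5g3 the motif reads on the opposite strand, as ACTTCCGG and TGACCTTGA. None of the 4 motifs was found in the windows of Cox7a1 and Cox7a2. The motif-bearing genes printed had KO against WT log2 fold changes at day 7 of -0.01 for Cox6a1, 0.05 for Ndufa11, -0.09 for Uqcr11, 0.06 for Uqcrh and 0.26 for Atp5g3, and none was called. A match describes the letters of the window and is not a measurement of binding.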

How the data were processed

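The authors deposited a table of raw counts per gene for 18 libraries, from 100 bp paired reads, made with STAR 2.7.3 and featureCounts 1.6.4 on mm10 per the labels' processing notes. Counts did not use strand, and reads over shared exon bases were given to each gene. Samples were grouped by genotype and day as labelled, with 3 mice each. Here 20 genes that the study lists as related to sex were left out, low counts were filtered and libraries were scaled by TMM (edgeR 4.0.16 in R 4.3.3). A quasi-likelihood model was fitted over all 6 groups with contrasts between genotypes, between days and for their interaction. P-values were adjusted by Benjamini-Hochberg over 21349 genes, with a threshold of 0.05. CPM values use the TMM-scaled library sizes. A 95% interval gives the uncertainty of a fold change between group means. It was estimated from the variation between mice over all 6 groups, moderated across genes. DESeq2 1.42.0, other scalings, other filters, a replicate block and each library left out were alternatives.

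The members and lists were chosen with earlier results of these data known. Members named were those called, the 2 highest per complex, complex II, isoform pairs and complex I core subunits, and up to 4 called in day comparisons. The values of 1 gene that this rule names are not reported here. The rest of the called members, those with separated groups, those with an unadjusted p under 0.05 and those with a motif were named after their values were seen. Of the members, 31 share exon bases with another gene, 12 of them over 10% of their bases with 1 gene, and Atp5o has 2 overlapping entries, so that its counts are uncertain.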

Additional observations from a re-analysis of the deposited data

Results flagged for a closer look

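For 4 members, every KO library lay below the mean of the WT libraries on one day and above it on another. The difference between the days' mean log2 differences from WT (the later day minus day 2) was 0.257 for Ndufb3, 0.290 for Uqcrc2 and 0.253 for Sdha at day 14. For Ndufa13 it was -0.367 at day 7 and -0.279 at day 14. When tested as interaction terms in the model over all genes, none passed the threshold: the adjusted p from edgeR's quasi-likelihood test was 0.808 for Ndufb3, 0.773 for Uqcrc2, 0.761 for Sdha, and 0.477 and 0.719 for Ndufa13 at days 7 and 14. The test of day 14 against day 2 was chosen after seeing the data and called 0 of 82 members and 223 genes in all (1.04%), with 1 member at an unadjusted p under 0.05.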

How the results depend on the processing

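No value changed direction among the members called, and no count of 0 at day 2 or in the interactions and the comparisons of days 14 and 7 changed with any alternative or any library left out. In KO against WT at day 7 the count of called members, 1, became 2 with DESeq2 size factors, upper quartile scaling or a minimum mean count of 50, and 3 with no filter. All genes called were 3722, 3667, 2987 and 3615 in these fits, against 3690 in the main fit. The members added were Cox6a2 with DESeq2 size factors (adjusted p 0.0488) and Ndufb11 with upper quartile scaling (adjusted p 0.0372) or the minimum of 50 (adjusted p 0.0478), and with no filter they were Ndufb11 (adjusted p 0.0194) and Cox4i2 (adjusted p 0.00736). At day 14 the count of called members was 1, Cox4i2, with no filter (1818 genes in all, against 1690 in the main fit). In WT, day 7 against day 2 gave 4 with DESeq2 and 4 with no filter (1511 and 1012 genes in all, against 118 in the main fit). Day 14 against day 2 gave 8 with DESeq2, 2 with upper quartile scaling, 10 with no filter, 5 with a minimum mean count of 50 and 0 with only the groups compared. All genes called there were 1383, 479, 1011, 770 and 28, against 343 in the main fit. In KO, day 7 against day 2 gave 4 with only the groups compared (2303 genes in all, against 3418 in the main fit). Day 14 against day 2 gave 22 with only the groups compared and 17 with no filter (2394 and 2527 genes in all, against 2411).

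With single libraries left out, called members ranged from 1 to 3 in KO against WT at day 7 (2 without KO replicate 2 or WT replicate 3, 3 without KO replicate 3 or WT replicate 2; Cox4i2 in each, with Ndufs4 or Ndufa5 where there were 3) and from 0 to 2 at day 14 (Cox4i2 without KO replicate 3, Cox4i2 and Cox7a1 without WT replicate 1). The filter was easier to pass in these fits, and Cox4i2 passed it through its highest KO libraries. Its part in these counts is thus no added support. In WT they ranged from 0 to 3 at day 7 (3 without replicate 2 of day 7) and from 0 to 4 at day 14 (4 without replicate 2 of day 2). In KO they ranged from 2 to 9 at day 7 (4, 5 and 6 without replicates 1 and 3 of day 2 and replicate 1 of day 7) and from 1 to 7 at day 14 (3 without replicate 1 or 3 of day 2 or replicate 2 of day 14, 1 without replicate 1 or 3 of day 14). Over the same left-out libraries, all genes called ranged from 2051 to 4117 and from 1041 to 1334 in KO against WT at days 7 and 14. Against day 2 they ranged from 0 to 535 and from 22 to 712 in WT at these days. In KO they ranged from 2185 to 3563 and from 1136 to 2892. The median of WT at day 14 against day 2 was -0.25 without replicate 1 of day 14.

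The labels do not say what the replicate numbers stand for, and the deviations of same-numbered KO and WT libraries correlated at -0.159 to 0.381. With the replicate number as a block, KO against WT at day 7 gave 2 called members, Cox7a1 and Cox6a2 (adjusted p 0.0391), of 3498 genes called in all. WT at day 14 against day 2 gave 0 members of 173 genes called in all. Cox6a2 rested on 1 to 15 counts per library and Cox4i2 on 0 to 26.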
